A study of Mus musculus with 10 samples.

Results

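The genes described here are 9 chloride and potassium channel genes listed for the corneal endothelium. They are the anion channel genes Cftr, Ano1, Ano6, Clcn2, Clcn3 and Clic1, and the potassium channel genes Kcnj2, Kcnj13 and Kcnk6. No measurement here assigned them to a cell type. They were taken by symbol from a table of 55450 genes, and all 9 were found. Enough counts for a test were present for 7 of them, among 17729 genes tested. Cftr and Kcnj13 were too low. The gene list was made with results of these data known, but no measured value entered the rule that selects the members.

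The corneal endothelium is the single layer of cells at the back of the cornea that moves ions and fluid from the stroma to the aqueous humour. The sodium pump drives this transport, potassium channels return the potassium that the pump brings in and hold the membrane potential negative, and anion channels let chloride and bicarbonate leave the cell. Slc4a11, the gene deleted here, encodes a membrane transport protein of the same layer, and mutations of its human counterpart cause a congenital corneal endothelial dystrophy.

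RNA was sequenced from corneal endothelial peelings of C57BL/6 mice aged 12 weeks, which either lacked Slc4a11 on both alleles (Slc4a11-/-, KO) or carried both (Slc4a11+/+, WT). Each genotype had 5 libraries, and 6 peelings of 3 animals were pooled for each, so n is a number of pools and every SD is a spread between pools. Total counts were 36026193 to 51008996 per library. Slc4a11 itself was at 3489 to 4357 CPM (read counts scaled to a common library size) in WT and 70.1 to 114 CPM in KO. A level per gene length is given as FPKM, which is CPM per kilobase of merged exons. Levels of different genes are compared as FPKM. The exceptions are marker sums and the ratio of Kcnj2 to Ano1, which are in CPM and not corrected for length. Fold changes are KO over WT on the log2 scale.

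The peelings held transcripts of other cell types besides the endothelium. The summed level of 10 endothelial markers was 17426 to 18839 CPM in WT and 11877 to 15196 CPM in KO. Without Slc4a11, the other 9 summed to 13937 to 15241 CPM in WT and 11807 to 15081 CPM in KO, lowest in KO 5. A list of 11 keratocyte markers summed to 54348 to 83138 CPM in WT and 55726 to 73812 CPM in KO. A list of 13 corneal epithelial markers was uneven among the KO pools, with 10 of 13 called higher in KO. Their sum was 56.2 to 208 CPM in WT, 57.5 CPM in KO 3, 248 CPM in KO 4, 621 CPM in KO 2, 2091 CPM in KO 1 and 3829 CPM in KO 5. All 13 had counts. For this reason the comparison was also made with KO 3 and KO 4 alone as the KO group and with the epithelial markers as a covariate.

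The sums of 3 smaller marker lists also differed between the genotypes without overlap. Schwann cell markers summed to 58.8 to 67.0 CPM in WT and 81.5 to 117 CPM in KO (4 of 6 called higher), and lens markers to 6.62 to 8.70 CPM in WT and 9.33 to 13.3 CPM in KO (2 of 6 called higher, with Lim2 at 0 counts). Muscle markers summed to 90.3 to 102 CPM in WT and 61.1 to 79.0 CPM in KO (1 of 5 called lower, with Des, Cnn1 and Actg2 near 0). Vessel markers (113 to 161 and 91.4 to 113 CPM), photoreceptor markers (6.72 to 24.2 and 1.28 to 14.3 CPM) and immune markers (249 to 361 and 302 to 505 CPM) overlapped. The vessel sum was mostly Kdr, with means of 121 CPM in WT and 84.2 CPM in KO. Pecam1, Cdh5, Tek, Lyve1, Egfl7 and Emcn were far lower than Kdr and had higher means in KO than in WT. Of 5 vessel markers tested, 1 was called lower and 0 higher, with a median log2 fold change of 0.90. The part of these cell types in the channel changes that follow was not tested.

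Kcnj2 was the only one of the 7 tested members called in the edgeR fit of all 10 libraries, and it fell in KO. Its level in KO was 30.2% of that in WT (95% interval 24.0% to 38.2%), and no KO pool reached the lowest WT pool. At an edgeR quasi-likelihood adjusted p under 0.05, 1 of the 7 members was called lower and 0 higher. Among all genes tested, 7.73% were called lower and 7.59% higher, and 15.3% in all, so 1 call among 7 is near the background. At an unadjusted p under 0.05, 2 of the 7 members were lower and 0 higher by each of edgeR, DESeq2 and limma-voom, beside 31.1%, 31.6% and 29.5% of all genes. After adjustment DESeq2 called 2 members lower and 0 higher (20.2% of all genes), and limma-voom 1 lower and 0 higher (13.5%). The median log2 fold change of the 7 members was -0.02, beside 0.00 over all genes. The ranges of the genotypes did not overlap for 1 of the 7 members, against 12.0% of all genes tested.

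**Figure D1:**
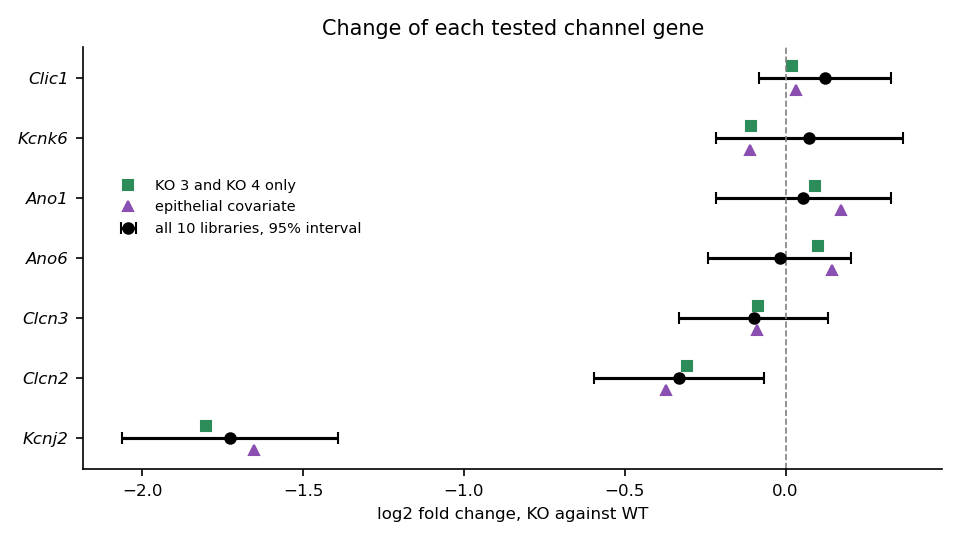
Log2 fold change of each of the 7 tested channel genes, KO over WT, with its 95% interval as a horizontal bar, from the fit of all 10 libraries. Squares give the value with KO 3 and KO 4 alone and triangles the value with epithelial markers as a covariate. Kcnj2 stands near -1.73 in all 3, and the other 6 genes lie between -0.33 and 0.12 in the fit of all libraries.

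Kcnj2 encodes a strong inward rectifier of the Kir family, a potassium channel that holds the resting membrane potential and needs the membrane lipid PIP2 to open. The gene (ENSMUSG00000041695.2) lies on chromosome 11, 111066164 to 111076821 on the plus strand in GRCm38. Its level was 8.04, 6.80, 9.22, 12.3 and 10.8 CPM in WT 1 to WT 5. It was 3.00, 2.76, 2.95, 2.42 and 3.10 CPM in KO 1 to KO 5. The KO pools lay close together, the WT pools spread more widely with WT 4 highest and WT 2 lowest, and the groups did not overlap. The WT mean was 9.42 ± 2.16 CPM and the KO mean 2.85 ± 0.272 CPM (SD, n = 5 each). The log2 fold change was -1.73 (SE 0.15, 95% interval -2.06 to -1.39, edgeR adjusted p = 3.0e-05), a 3.31-fold lower level and the 55th smallest p of all genes. As these are bulk libraries, fewer cells that express a gene and less of its RNA per cell cannot be told apart.

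The lower Kcnj2 level was also present in the KO pools with few epithelial transcripts. With KO 3 and KO 4 alone the log2 fold change was -1.80 (edgeR adjusted p = 0.0016), and Kcnj2 was again the single member called, where 5.99% of genes were called. With the epithelial covariate it was -1.65 (edgeR adjusted p = 7.5e-04), in a fit that called 6.23% of genes. Over the alternatives run, the log2 fold change of Kcnj2 stayed between -1.82 and -1.61, and every adjusted p was at most 0.0016. The summed keratocyte markers overlapped between the genotypes, and with these markers as a covariate the log2 fold change was -1.66.

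**Figure D2:**
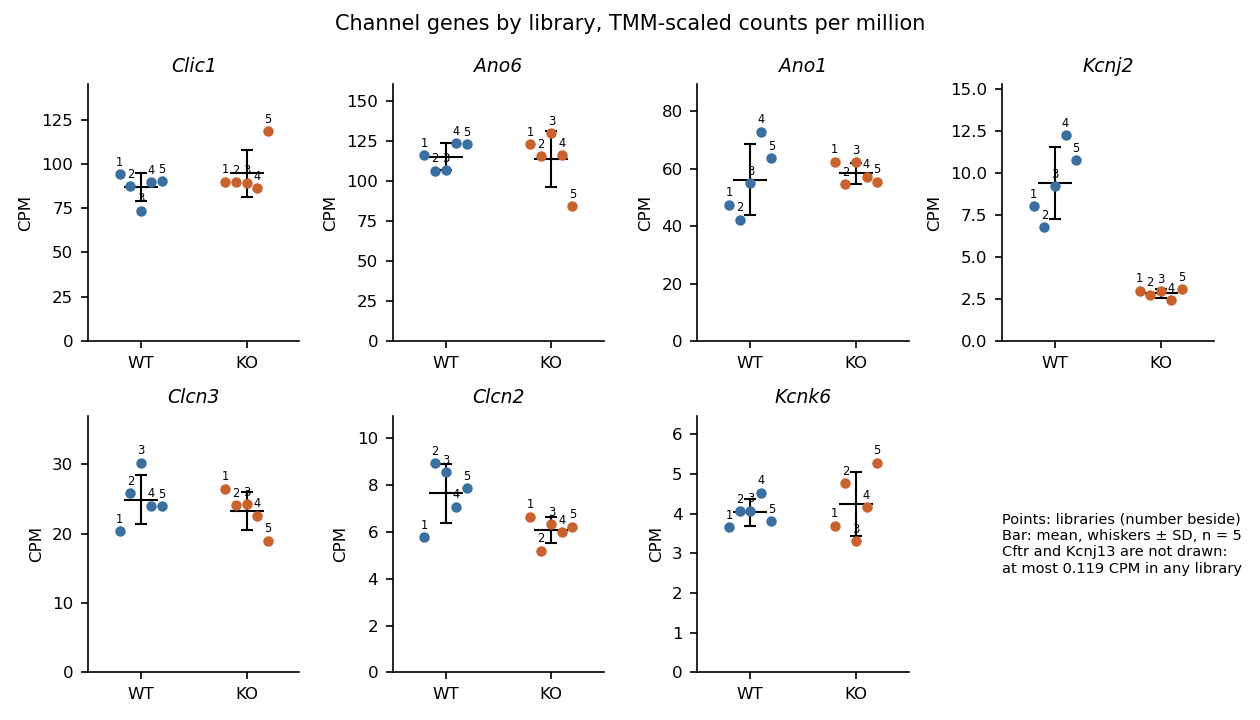
Level in CPM of the 7 tested channel genes in each of the 10 libraries, with the mean and SD of each genotype (n = 5). The KO points of Kcnj2 lie between 2.42 and 3.10 CPM, below all WT points (6.80 to 12.3 CPM), while the WT and KO points of the other 6 genes overlap.

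Kcnk6, a member of the tandem-pore family whose channels carry background potassium current, was at 3.65, 4.07, 4.08, 4.53 and 3.81 CPM in WT 1 to WT 5. In KO 1 to KO 5 it was at 3.70, 4.76, 3.30, 4.16 and 5.28 CPM. KO 5 was highest and KO 3 lowest, and the WT range lay within the KO range. The means were 4.03 ± 0.331 and 4.24 ± 0.796 CPM, and the log2 fold change was 0.07 (95% interval -0.22 to 0.36, edgeR adjusted p = 0.75). With KO 3 and KO 4 alone it was -0.11 (edgeR adjusted p = 0.73), the other side of 0. Kcnk6 lies on chromosome 7, 29221926 to 29232515 on the minus strand.

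Kcnj13 encodes a weakly rectifying Kir channel known from the retinal pigment epithelium. It had 0, 1, 1, 3 and 3 counts in WT 1 to WT 5 and 5, 1, 0, 0 and 2 counts in KO 1 to KO 5, which is 8 counts in each genotype. Its highest value was 0.119 CPM in KO 1. Of its 1270 exon bases, 623 are shared with exons of Gigyf2 on the opposite strand, which had 23677 counts, and the sources used here do not state whether counting used strand. The summed level of 10 pigment cell and pigment epithelium markers was 3.67 to 8.35 CPM in WT and 4.62 to 17.3 CPM in KO, highest in KO 3, where Kcnj13 had 0 counts.

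Cftr, the chloride and bicarbonate channel opened by cAMP-dependent phosphorylation, was not detected in WT. It lies on chromosome 6, from 18170687 to 18322768 on the plus strand (ENSMUSG00000041301.15). It had 0 counts in 9 of the 10 libraries and 3 counts in KO 1, or 0.0715 CPM there. A count of 0 over the 5 WT libraries together allows a level of up to 0.0134 CPM (3 counts), for counting error alone. KO 1 was the pool with the second highest sum of epithelial markers, while KO 5, with the highest, had 0 Cftr counts.

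Ano1, the calcium-activated chloride channel, was at 47.5, 42.3, 54.9, 72.9 and 63.7 CPM in WT 1 to WT 5. In KO 1 to KO 5 it was at 62.5, 54.7, 62.3, 57.3 and 55.5 CPM. WT 4 was the highest and WT 2 the lowest of all 10 pools, and all KO pools fell inside the WT range. The means were 56.2 ± 12.3 and 58.4 ± 3.71 CPM (SD, n = 5), and the log2 fold change was 0.05 with a 95% interval of -0.22 to 0.33 (edgeR adjusted p = 0.80). The gene spans 144588549 to 144751974 on the minus strand of chromosome 7.

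Ano6 belongs to the same anoctamin family and encodes a calcium-activated phospholipid scramblase that also conducts ions. It was at 116, 107, 107, 124 and 123 CPM in WT 1 to WT 5 and at 123, 116, 130, 116 and 84.5 CPM in KO 1 to KO 5. KO 5 was the lowest of all pools and KO 3 the highest, and the other 3 KO pools lay within the WT range. The means were 115 ± 8.46 and 114 ± 17.5 CPM, with a log2 fold change of -0.02 (95% interval -0.24 to 0.20, edgeR adjusted p = 0.93), or 0.08 without KO 5. KO 5 also had the lowest sum of endothelial markers, and the part of the pool's makeup in its Ano6 level was not tested. Ano6 lies on chromosome 15, 95790843 to 95974751 on the plus strand.

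Clcn2, a plasma membrane chloride channel opened by hyperpolarisation, had the lowest fold change after Kcnj2 but did not pass the test with all libraries. It was at 5.78, 8.94, 8.56, 7.08 and 7.88 CPM in WT 1 to WT 5 and at 6.65, 5.20, 6.34, 5.99 and 6.23 CPM in KO 1 to KO 5. The KO pools were below 4 of the 5 WT pools, and WT 1 alone lay among them. The means were 7.65 ± 1.26 and 6.08 ± 0.547 CPM, and the log2 fold change was -0.33 (SE 0.12, 95% interval -0.59 to -0.07). Its edgeR adjusted p was 0.083, with an unadjusted p of 0.0176. DESeq2 called it (adjusted p = 0.041), as did edgeR without WT 1 (log2 fold change -0.41, adjusted p = 0.020) and with keratocyte markers as a covariate (-0.38, adjusted p = 0.019). Over all alternatives its adjusted p ran from 0.019 to 0.31. Clcn2 lies on chromosome 16, 20702964 to 20717746 on the minus strand.

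Clcn3 and Clic1 act mainly inside the cell, Clcn3 as a chloride and proton exchanger of endosomes and Clic1 as a protein with a soluble and a membrane-inserted form. Clcn3 (chromosome 8, 60910389 to 60983300, minus strand) was at 20.4, 25.9, 30.2, 24.0 and 24.0 CPM in WT 1 to WT 5. In KO 1 to KO 5 it was at 26.5, 24.1, 24.2, 22.6 and 19.0 CPM. The ranges overlapped, with WT 3 highest and KO 5 lowest. The means were 24.9 ± 3.58 and 23.3 ± 2.77 CPM, and the log2 fold change was -0.10 (95% interval -0.33 to 0.13, edgeR adjusted p = 0.56).

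Clic1 (chromosome 17, 35049966 to 35058749, plus strand) was at 94.4, 87.6, 73.6, 89.7 and 90.1 CPM in WT 1 to WT 5. In KO 1 to KO 5 it was at 89.96, 89.8, 89.5, 86.4 and 119 CPM. KO 5 stood above all other pools, and the remaining KO values lay within the WT range. The means were 87.1 ± 7.94 and 94.8 ± 13.3 CPM, with a log2 fold change of 0.12 (95% interval -0.08 to 0.33, edgeR adjusted p = 0.40). Without KO 5 it was 0.03, and with KO 3 and KO 4 alone 0.02. KO 5 was thus the highest KO pool for Clic1 and Kcnk6 and the lowest for Ano6 and Clcn3, and it had the highest epithelial and the lowest endothelial marker sum. The part of these sums in the values of KO 5 was not tested.

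Per gene length, Clic1 was the most abundant member in WT, at 48.4 ± 4.41 FPKM (SD, n = 5). Ano6 followed at 9.41 ± 0.690 FPKM and Ano1 at 9.01 ± 1.97 FPKM, with overlapping ranges. The next tier held Kcnj2 at 1.73 ± 0.397 FPKM, Clcn3 at 1.46 ± 0.210 FPKM, Clcn2 at 1.27 ± 0.210 FPKM and Kcnk6 at 0.970 ± 0.0797 FPKM, where each WT range overlapped that of its neighbour. Kcnj13 at 0.0263 FPKM and Cftr at 0 came last. Among the KO pools Kcnj2 stood at 0.523 ± 0.0499 FPKM, which put it below Kcnk6. With the longest transcript in place of merged exons as the length, Clcn3 (3.04 FPKM) and Clcn2 (1.94 FPKM) came before Kcnj2, so the order within that tier depends on the length used. So does the gap between the anoctamins: on that length Ano6 was at 21.7 to 25.2 FPKM and Ano1 at 9.22 to 15.9 FPKM in WT, without overlap.

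**Figure D3:**
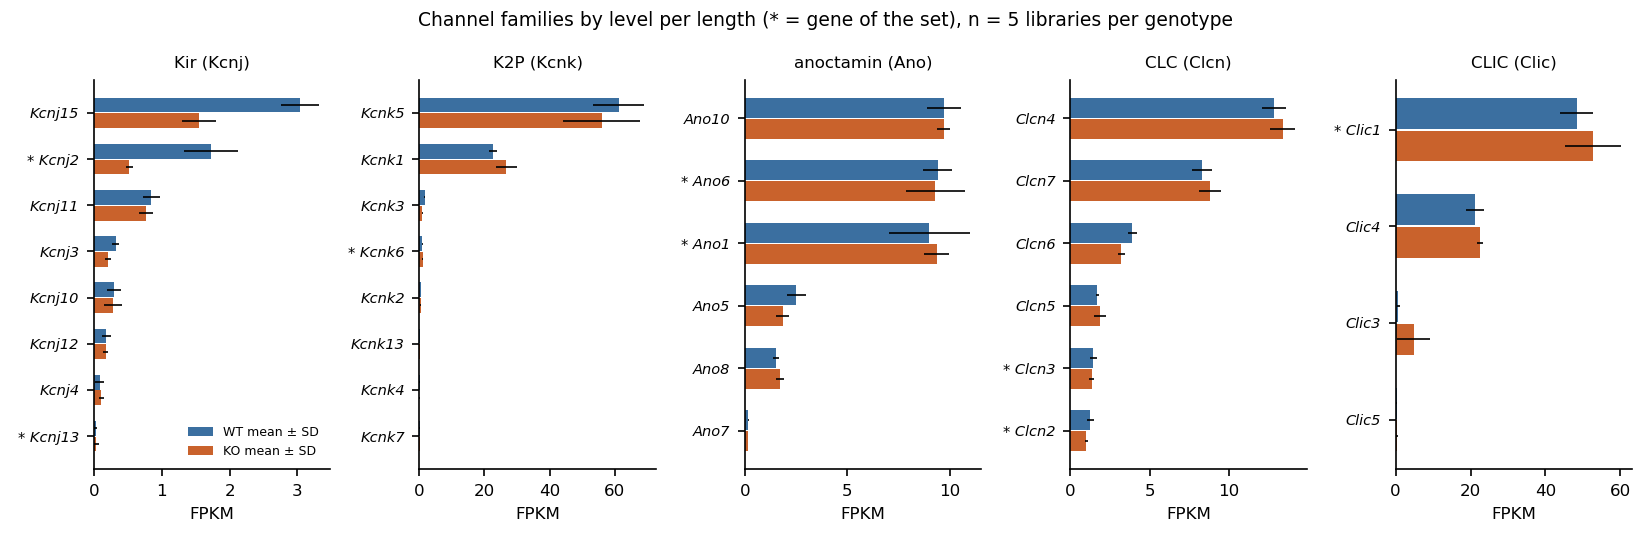
Level per gene length (FPKM) of the most abundant genes and the members in each of the channel families that hold them, as mean and SD of the 5 WT and the 5 KO libraries. An asterisk marks the channel genes described here. In the Kir family Kcnj15 and Kcnj2 are the tallest WT bars and both are shorter in KO.

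Within its family Kcnj2 was the second most abundant of 15 Kir genes in WT, with 26.1% of the family's summed FPKM, after Kcnj15 with 46.3%. In KO its share was 14.3%, that of Kcnj15 was 41.5%, and Kcnj11, the pore of ATP-sensitive potassium channels, went from 13.0% to 20.7%. Kcnj11 itself had a log2 fold change of -0.14 (95% interval -0.44 to 0.17, edgeR adjusted p = 0.54). The summed level of the Kir genes was 5.88 to 7.37 FPKM in WT and 3.09 to 4.00 FPKM in KO, without overlap. Kcnk6 made up only 1.12% of the tandem-pore family in WT, where Kcnk5 held 70.0% and Kcnk1 26.1%. On the merged-exon length the anoctamins were spread more evenly, with 30.02% for Ano10, 29.0% for Ano6 and 27.6% for Ano1. On the longest transcript Ano6 and Ano1 lay apart, as given above, so their near equality depends on the length used. Among the CLC genes Clcn4 led with 43.5%, and Clcn3 and Clcn2 held 4.96% and 4.32%. Clic1 held 68.5% of the CLIC family and Clic4 30.1%.

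The starts of Kcnj2, Kcnj15 and Ano1 are shown because the first pair were the leading Kir genes and both fell, while Kcnj2 and Ano1 varied together among the WT pools (described further on). The windows are the 250 bases before the transcription start in RefSeq's annotation of GRCm38.p6, written 5′ to 3′ on the gene's strand: chr11:111065914-111066163 (plus strand) for Kcnj2, chr16:95257308-95257557 (plus strand) for Kcnj15 and chr7:144738574-144738823 (minus strand) for Ano1. The Ano1 window lies inside the span given above for the gene, so the outermost start of that span was not searched. Capitals mark the E-box CACGTG and the GC box GGGCGG.
Kcnj2: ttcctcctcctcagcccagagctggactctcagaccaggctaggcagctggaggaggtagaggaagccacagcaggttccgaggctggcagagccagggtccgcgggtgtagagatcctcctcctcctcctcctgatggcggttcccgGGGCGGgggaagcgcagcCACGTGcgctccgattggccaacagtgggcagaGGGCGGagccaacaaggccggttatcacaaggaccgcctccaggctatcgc
Kcnj15: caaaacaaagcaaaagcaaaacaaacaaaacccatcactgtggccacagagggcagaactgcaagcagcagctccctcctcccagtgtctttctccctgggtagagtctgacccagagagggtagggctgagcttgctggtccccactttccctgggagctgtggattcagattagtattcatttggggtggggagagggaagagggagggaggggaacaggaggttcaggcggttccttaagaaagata
Ano1: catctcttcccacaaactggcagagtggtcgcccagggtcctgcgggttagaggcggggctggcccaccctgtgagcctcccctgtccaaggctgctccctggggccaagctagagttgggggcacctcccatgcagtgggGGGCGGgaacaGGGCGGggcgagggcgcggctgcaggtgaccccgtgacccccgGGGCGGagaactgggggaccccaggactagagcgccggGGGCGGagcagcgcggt
A window was available for 8 of the 9 members. Searched on both strands were the E-box CACGTG, the GC box GGGCGG, the TATA box TATAAA, the cAMP response core TGACG, and the hypoxia response cores ACGTG (which lies within the E-box) and, as a variant, GCGTG. Kcnj2 held CACGTG once, 84 bases before the start, and GGGCGG at 102 and 51 bases before it. CACGTG was present in 6.02% of 32851 windows of the same length and in none of the windows of the other 7 members. Ano1 held GGGCGG 4 times, a motif found in 32.7% of all windows, and the Kcnj15 window held none of the 6 motifs. GC content was 65.6% for Kcnj2, 72% for Ano1 and 53.2% for Kcnj15, beside a median of 52.4%. These matches are a description of the letters and say nothing of binding.

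Ano1 and Kcnj2 varied together among the WT pools, although of these genes only Kcnj2 was called between the genotypes. After each genotype's mean was subtracted, Pearson's r of their log2 CPM was 0.91 over the 10 libraries, the highest of the 21 pairs of tested members. All members of a pair share the library, its depth and its cell makeup, so r is given as a description. In WT both genes had the same order of pools, WT 4, WT 5, WT 3, WT 1 and WT 2 from high to low, and the CPM of Kcnj2 was 16.1% to 16.9% of that of Ano1. In KO it was 4.22% to 5.59% of that of Ano1, and the order of pools differed between the genes. Kcnj2 was highest in KO 5 and lowest in KO 4, and Ano1 highest in KO 1 and lowest in KO 2. The KO pools spread less than the WT pools (SD 0.594 against 1.97 FPKM for Ano1, 0.0499 against 0.397 FPKM for Kcnj2). The r over 10 libraries therefore rests mostly on the WT pools. The lowest r was -0.86, between Clcn3 and Clic1.

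**Figure D4:**
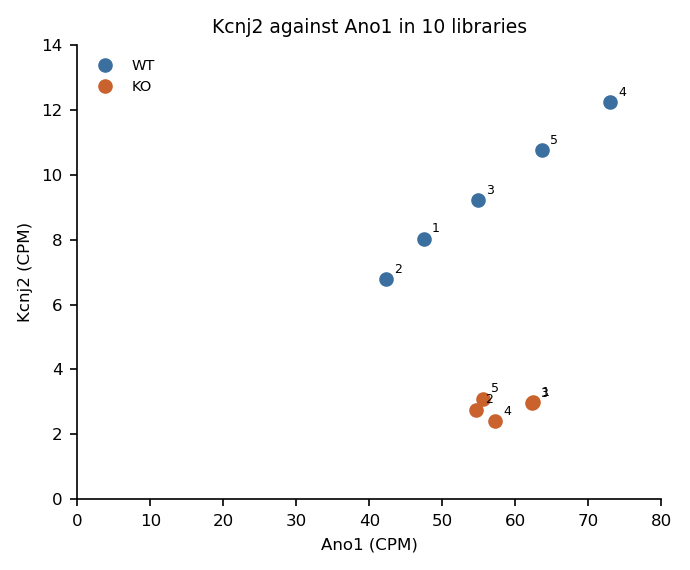
Kcnj2 level against Ano1 level in CPM, with 1 point for each of the 10 libraries. In the 5 WT libraries the CPM of Kcnj2 was 16.1% to 16.9% of that of Ano1, so the WT points lie along a line. The 5 KO points lie together beneath it at 4.22% to 5.59%. These percentages are not corrected for gene length.

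The genes most like each member over the 10 libraries were found by the same r with genotype means subtracted, among 10666 protein-coding genes. Being the highest of so many genes, these r values are large by selection and are given as a description. Tmco3 was first for both Kcnj2 (r = 0.97) and Ano1 (0.95), followed by Slc17a5 for Kcnj2 (0.95) and Xxylt1 for Ano1 (0.95). As r between Kcnj2 and Ano1 was itself 0.91, a shared first gene is no separate result. For Ano6 the first was Lrp5 (0.99), and for Clcn2 they were Vps9d1 (0.99) and Rffl (0.98). Clcn3 was most like Napg and Scai (both 0.97), Clic1 most like Plscr3 and Clta (both 0.96), and Kcnk6 most like Dhodh (0.94) and Bloc1s3 (0.93). Tmco3 had a log2 fold change of -0.13 between the genotypes (edgeR adjusted p = 0.081), so it lacked the fall of Kcnj2. Several members also varied with marker levels, taken as the mean log2 CPM of the tested markers of a list. Only 2 of 5 muscle markers (Acta2 and Myh11), 5 of 7 vessel markers and 5 of 10 pigment markers were tested. All endothelial, keratocyte and Schwann cell markers were tested. With the endothelial markers r was 0.81 for Ano6, -0.78 for Clic1 and -0.79 for Kcnk6. With the 2 muscle markers it was 0.93, -0.72 and -0.77. KO 5 was the lowest KO pool for Ano6, the endothelial sum and Myh11, and the highest for Clic1 and Kcnk6. These r values were not recomputed without KO 5. Kcnk6 also had an r of 0.75 with the Schwann cell markers, 0.71 with the vessel markers and -0.75 with the pigment markers. Clcn2 had an r of -0.78 with the keratocyte markers. The values named for Ano6, Clcn2, Clic1 and Kcnk6 are the largest in size among all tested members and lists. For Kcnj2 the values over the 10 lists lay between -0.50 and 0.58, the highest with the keratocyte markers.

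Among the other potassium channel genes, 51 of 95 were tested, and 9 were called higher and 7 lower in KO (31.4%, beside 15.3% of all genes). The median log2 fold change of the 51 was 0.06, beside 0.00 for all genes. The ranges did not overlap for 12 of the 51 (23.5%, beside 12.0% of all genes). Kcnj15, the most abundant Kir gene, was at 18.6, 18.0, 18.0, 19.1 and 22.2 CPM in WT 1 to WT 5 and at 10.8, 9.33, 9.73, 11.5 and 7.46 CPM in KO 1 to KO 5. Every KO pool was below every WT pool, and the level fell to 50.9% of WT (log2 fold change -0.97, SE 0.11, edgeR adjusted p = 1.6e-04). With KO 3 and KO 4 alone the value was -0.85 (edgeR adjusted p = 0.0023). The other Kir gene called was Kcnj3, a G-protein-gated channel, with means of 1.66 ± 0.253 and 1.08 ± 0.217 CPM (edgeR adjusted p = 0.030), a call that was not made with KO 3 and KO 4 alone (adjusted p = 0.31).

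Other potassium channel genes that fell were Kcnb2, a voltage-gated delayed rectifier, from 3.74 ± 0.538 to 1.39 ± 0.310 CPM (edgeR adjusted p = 2.7e-04), and Kcnk3, an acid-sensitive background channel, from 6.34 ± 1.06 to 3.61 ± 0.725 CPM (edgeR adjusted p = 0.0049). Kcnip3, which binds voltage-gated channels, fell to 71.7% of WT and Kcnab3, an accessory subunit, to 64.4%. With KO 3 and KO 4 alone, Kcnk3 had an edgeR adjusted p of 0.074 and Kcnab3 of 0.19. Over the alternatives run, the log2 fold change stayed between -0.92 and -0.68 for Kcnk3 and between -0.76 and -0.52 for Kcnab3.

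Abcc9, the sulphonylurea receptor subunit of ATP-sensitive potassium channels, had the highest fold increase of the potassium channel genes named here. It was at 1.06, 0.648, 0.683, 1.05 and 0.988 CPM in WT 1 to WT 5 and at 4.67, 2.11, 5.97, 5.53 and 3.84 CPM in KO 1 to KO 5. The KO pools were uneven but all above the WT pools, and the increase was 4.99-fold (log2 fold change 2.32, SE 0.27, edgeR adjusted p = 2.2e-04). Its relative Abcc8 rose 1.89-fold (edgeR adjusted p = 0.044). With KO 3 and KO 4 alone Abcc8 was not called (edgeR adjusted p = 0.33). Its log2 fold change stayed between 0.59 and 1.15 over the alternatives run. Kcnf1 and Kcng4, which modify other voltage-gated channels and form no current alone, rose 1.68-fold and 1.58-fold, and the accessory subunit Kcne1l rose 1.70-fold. Kcna6, a voltage-gated channel, rose 1.58-fold with all KO pools (edgeR adjusted p = 0.019). With KO 3 and KO 4 alone its edgeR adjusted p was 0.22. Its log2 fold change stayed between 0.44 and 0.74 over the alternatives run. Kcnk5, a background channel and at 61.1 ± 7.97 FPKM the most abundant potassium channel gene of the lists, had a log2 fold change of -0.13 (95% interval -0.44 to 0.18, edgeR adjusted p = 0.58).

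**Figure D5:**
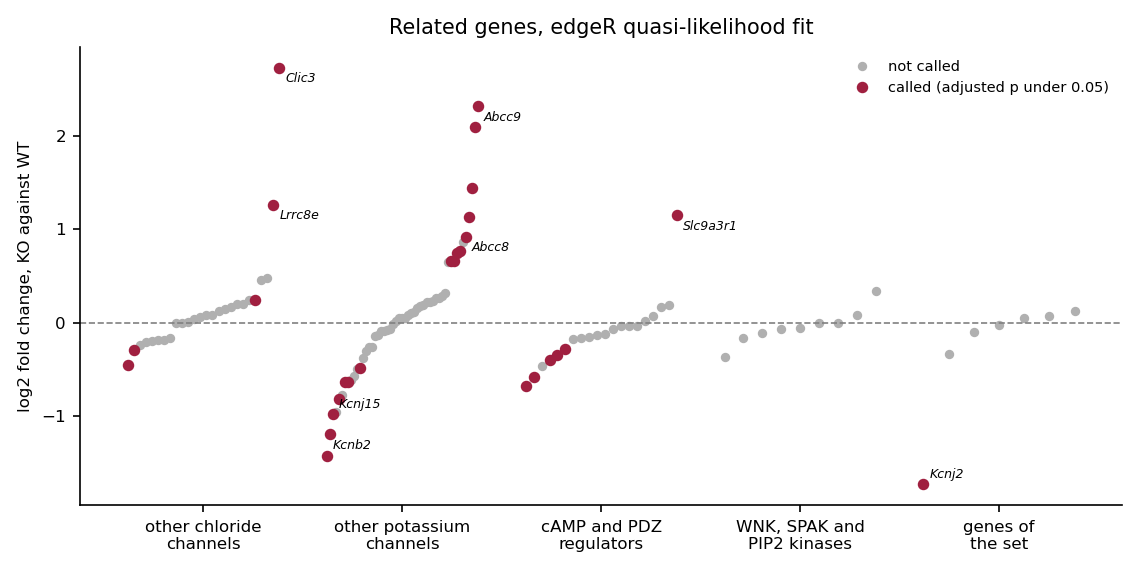
Log2 fold change, KO over WT, of the tested genes of each related list, with 1 point per gene. Red points passed the edgeR threshold (adjusted p under 0.05) and grey points did not; the column at the right holds the 7 tested channel genes described here. Potassium channel genes have called points on both sides of 0, from Kcnb2 at -1.42 to Abcc9 at 2.32.

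Of 41 other chloride channel genes found, 26 were tested, with 3 called higher and 2 lower (19.2%, near the 15.3% of all genes) and a median log2 fold change of 0.07. Lrrc8e, a subunit of the volume-regulated anion channel, went up from 0.641 ± 0.167 to 1.54 ± 0.470 CPM (edgeR adjusted p = 0.0054). Ttyh2, of the tweety family, rose 1.19-fold (edgeR adjusted p = 0.0497). Clcn6, a CLC exchanger of late endosomes, fell to 82.1% of WT (edgeR adjusted p = 0.014), and Ano5, an anoctamin known for its role in muscle, fell to 73.4% (edgeR adjusted p = 0.043). With KO 3 and KO 4 alone Lrrc8e was still called (edgeR adjusted p = 0.016), and Ttyh2, Clcn6 and Ano5 were not (edgeR adjusted p = 0.37, 0.14 and 0.49). Their log2 fold changes there were 0.19 for Ttyh2, -0.24 for Clcn6 and -0.21 for Ano5. With all KO pools they were 0.25, -0.28 and -0.45. Clic3, of the same family as Clic1, was at 0.257 to 1.28 CPM in WT and at 7.68, 4.70, 0.217, 1.10 and 10.7 CPM in KO 1 to KO 5. It was high in the 3 pools with high epithelial marker sums, within the WT range in KO 4 and just below it in KO 3. Its log2 fold change went from 2.73 (edgeR adjusted p = 0.036) to -0.19 with KO 3 and KO 4 alone and to -0.23 with the epithelial covariate.

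Genes that set the activity of these channels were described in 2 lists. Of 20 tested genes for cAMP signalling and PDZ scaffolds, 1 was called higher and 5 lower (30%, beside 15.3% of all genes), with a median log2 fold change of -0.12. Slc9a3r1, a PDZ scaffold that binds the tail of the Cftr protein, was at 10.8, 10.2, 9.59, 8.78 and 10.2 CPM in WT 1 to WT 5 and at 25.7, 20.7, 17.3, 23.1 and 23.7 CPM in KO 1 to KO 5. All KO pools were above all WT pools (2.23-fold, log2 fold change 1.15, SE 0.10, edgeR adjusted p = 2.8e-05). Pde4b, a phosphodiesterase that breaks down cAMP, fell from 67.0 ± 2.73 to 41.9 ± 8.48 CPM (edgeR adjusted p = 0.0023), without overlap. The adenylyl cyclases Adcy5 and Adcy2, which make cAMP, fell to 78.6% and 75.9% of WT (edgeR adjusted p = 0.018 and 0.021). With the epithelial covariate neither passed, with log2 fold changes of -0.24 for Adcy5 (-0.35 without it, adjusted p = 0.175) and -0.41 for Adcy2 (-0.40 without it, adjusted p = 0.10). Both were called with KO 3 and KO 4 alone (adjusted p = 0.045 and 0.030). Adcy6 and Pde4d, named after their values were seen because only 5 genes were called lower, fell to 82.2% and 66.8% (edgeR adjusted p = 0.046 and 0.039). Neither was called with the epithelial covariate or with KO 3 and KO 4 alone: the log2 fold change of Pde4d went from -0.58 to -0.27 and -0.28 (adjusted p = 0.36 and 0.35), and that of Adcy6 from -0.28 to -0.24 and -0.21 (adjusted p = 0.24 and 0.29).

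The second list held kinases of the WNK and SPAK pathway, which act on chloride transport, and the kinases that make PIP2. Of 9 tested, edgeR called 0 (15.3% of all genes), with 1 higher and 0 lower at an unadjusted p under 0.05 (31.1% of all genes). DESeq2 called 1 higher and 0 lower (20.2% of all genes), and limma-voom 0 in either direction (13.5%). Wnk1, the most abundant per length at 12.7 ± 0.645 FPKM, had a log2 fold change of 0.08 (95% interval -0.14 to 0.31). Pip5k1a and Pip5k1b, which make PIP2, had log2 fold changes of -0.11 (-0.23 to 0.02) and -0.06 (-0.30 to 0.17).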

How the data were processed

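Polyadenylated RNA was measured in 10 libraries. The authors deposited raw read counts per gene, as whole numbers. Per the submitters' processing notes, reads were handled with HISAT2 2.1.0, Trim Galore 0.6.4, cutadapt 2.4, Subread 1.6.4 and featureCounts on GRCm38.p6. Not given in the sources used here are the strand setting, the annotation release and the treatment of reads with several matches. All 55450 identifiers matched GENCODE vM21.

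Libraries were grouped by genotype label. Genes were filtered with filterByExpr (minimum count 10, total 15), scaled by TMM and tested by the quasi-likelihood F test of edgeR 4.0.16 in R 4.3.3, without covariates, over 17729 genes, with a threshold of 0.05 on the Benjamini-Hochberg adjusted p. CPM used TMM-scaled library sizes. The script was tested on simulated data. Tested genes held 99.9% of counts, with a common biological coefficient of variation of 16.3%. Nothing states whether pools came from separate experiments, so p-values measure the spread between these pools.

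The members and lists were chosen with earlier results of these data known. Named were all members; from each related list the called genes of at least 1 CPM, up to 6 per direction (3 for regulators) by smallest p, and, where described, those among the 5 highest per length; and for likeness 2 genes of at least 5 CPM per member, of which 1 is not reported here. Same-numbered libraries of the genotypes did not vary together (r of -0.42 to 0.085), so the numbers were not used as pairs. Alternatives were DESeq2 1.42.0, limma-voom 3.58.1, other scalings and filters, marker covariates, KO 3 and KO 4 alone, a replicate block, a stricter threshold, another gene length and each library left out.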

Additional observations from a re-analysis of the deposited data

Results flagged for a closer look

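Clic1 in the KO group stood out by 1 library. Its level in KO 5 was 118.5 CPM, and the gap to the next KO pool was 0.888 of the whole KO range, above the critical value of 0.71 for 5 samples in Dixon's test. Of 14 groups tested (7 genes in each genotype) this was the 1 past that value. Chance gives about 1 in 20 groups, so 1 among 14 is near that rate. The log2 fold change of Clic1 was 0.12 with KO 5 and 0.03 without it.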

How the results depend on the processing

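Kcnj2 was called lower under every alternative run. The number of members called lower was 1, and it was 2 with DESeq2 and with keratocyte markers as a covariate, and 1 to 2 when each library was left out. Counts over the lists moved more. Of all genes, 1346 were higher and 1370 lower: with epithelial markers as a covariate 495 and 609, with KO 3 and KO 4 alone 527 and 578, at an adjusted p under 0.01 450 and 574, and with each library left out 836 to 1532 (lowest without WT 3, WT 5 or KO 1) and 965 to 1666. With the replicate block 750 were higher, 1 other chloride channel gene was higher and 0 lower, and 3 regulators were lower, while Kcnj2 kept a log2 fold change of -1.70. Other chloride channel genes called higher numbered 3: 1 with limma-voom, the epithelial or pigment covariate or the stricter threshold, and 1 to 3 with a library left out. Those called lower numbered 2: 1 with total counts, limma-voom or the pigment covariate, 0 with the epithelial covariate or the stricter threshold, and 1 to 3 with a library left out. Other potassium channel genes called higher numbered 9, and 5 with the epithelial covariate, KO 3 and KO 4 alone or the stricter threshold. Those called lower numbered 7, and 4 with KO 3 and KO 4 alone. Regulators called higher numbered 1: 3 with upper quartile factors or DESeq2, 2 with total counts, the CPM filter or the keratocyte covariate, and 1 to 3 with a library left out. Those called lower numbered 5: 3 with total counts or KO 3 and KO 4 alone, 1 with the epithelial covariate or the stricter threshold, and 2 to 6 with a library left out. The cause of these moves was not tested, apart from fewer KO libraries or a stricter threshold by construction. Clic3 changed direction, to -0.23 with the epithelial covariate and -0.19 with KO 3 and KO 4 alone. With the longest transcript as length, WT levels were 12.3 FPKM for Ano1, 23.4 for Ano6, 1.94 for Clcn2, 3.04 for Clcn3 and 59.4 for Clic1. Some calls changed when 1 library was left out, given here by gene with the libraries and the edgeR adjusted p. Lost were Abcc8 (each of WT 1, WT 3, WT 4, WT 5, KO 1, KO 2 and KO 4, 0.0582 to 0.0991), Adcy2 (WT 4, 0.0511), Adcy6 (each of WT 2, WT 3, WT 4, WT 5, KO 1, KO 2, KO 4 and KO 5, 0.0668 to 0.105), Ano5 (each of WT 1, WT 2, WT 3, WT 4, KO 1, KO 2 and KO 5, 0.051 to 0.0998), Clic3 (each of WT 2, WT 3, WT 4, WT 5, KO 1, KO 2 and KO 5, 0.0566 to 0.0855), Kcnab3 (each of WT 2, WT 3, WT 4, WT 5, KO 1, KO 3, KO 4 and KO 5, 0.061 to 0.103), Kcnj3 (each of WT 3, WT 4, WT 5, KO 1, KO 2 and KO 5, 0.0516 to 0.0755), Pde4d (each of WT 3, WT 4, WT 5, KO 1, KO 2 and KO 5, 0.0502 to 0.0973) and Ttyh2 (each of WT 2, WT 3, WT 5, KO 1, KO 2, KO 4 and KO 5, 0.077 to 0.105). Gained were Clcn2 (WT 1, 0.0198), Ezr (each of KO 3 and KO 5, 0.0353 to 0.0418) and Kcnk1 (each of KO 2 and KO 5, 0.0276 to 0.0442). Depth limits Cftr and Kcnj13 to a statement of counts.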
